A study of Homo sapiens with 6 samples.

Results

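HOX genes and other transcription factors of positional identity were examined in HaCaT cells, a spontaneously immortalized line of human skin keratinocytes. The members were chosen by symbol alone: HOX genes of the A to D clusters, the homeobox families *MEIS*, *PBX*, *PITX*, *DLX*, *MSX*, sine oculis (*SIX2* and its relatives), *IRX*, *LHX*, *EN*, *OTX*, *PAX* and *PRRX*, the T-box and GATA genes, and the forkhead genes *FOXA* to *FOXJ* and *FOXQ*. Of the 12499 genes in the deposited table, 71 matched. These were 19 HOX genes (9 of the A cluster, 2 of the B cluster and 8 of the C cluster) and 52 other genes, with no row for a D-cluster or *PRRX* gene. The other genes were 12 forkhead, 6 T-box, 5 *DLX*, 4 *PBX*, 4 sine oculis, 4 *IRX*, 4 *LHX*, 3 *MEIS*, 3 GATA, 2 *PITX* and 2 *MSX* genes with 1 each of *PAX*, *EN* and *OTX*.

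The study asked which transcripts differ when keratinocytes receive a lentivirus carrying *ATF7*, an ATF/CREB family transcription factor, during culture in high glucose. Cells of both groups were infected for 48 hours, with LV-*ATF7* or with the negative control lentivirus LV-NC, and then spent 24 hours in 25 mM glucose. Each group had 3 poly(A) RNA-seq libraries, and no culture without virus or in normal glucose is part of the comparison. The labels do not say whether the 3 libraries came from separate cultures, so p-values measure only the spread between these libraries, which may be technical, and the vector's promoter is not given in the sources used here.

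HOX proteins are homeodomain transcription factors whose genes lie in clusters in the order in which they are used along the body axis, and adult skin cells keep a record of their site of origin in the HOX genes they express. They bind DNA together with TALE homeodomain cofactors of the PBX and MEIS families. Polycomb complexes hold unused HOX genes silent, trithorax complexes keep the used ones active, and retinoic acid, FGF and WNT signals set the pattern in the embryo. In the epidermis and its appendages DLX, MSX, GATA, TBX and forkhead factors take part in placing and differentiating hair, nail, gland and stratified epithelium.

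Total counts were between 16686472 and 20562768 per library. *ATF7* itself was at 50.6, 46.4 and 52.2 CPM (read counts scaled by TMM to a common library total) in the LV-NC libraries and at 21.9, 25.7 and 28 CPM in those labeled LV-*ATF7* (log2 fold change -0.98, SE 0.12, adjusted p = 1.89e-04), which goes against the label, so every direction below is that of libraries labeled LV-*ATF7* over libraries labeled LV-NC. Exchanged labels would turn each of these directions, which was not tested, and whether the counts take in vector transcripts or only the endogenous ones is not given in the sources used here. The paper describes LV-*ATF7* infection of HaCaT cells as overexpression, checked by qRT-PCR and Western blot. It does not say that the cells checked were those sequenced. LV-NC replicate 1 stood apart: its counts differed from those of replicates 2 and 3 by a chi-square of 76.3 and 68.5 per gene, against 3.76 between those 2 and 2.86 to 10.5 among the LV-*ATF7*-labeled libraries. All 18 keratinocyte markers had a row, and their summed level was 3173 to 4259 CPM in the LV-NC libraries and 8879 to 9627 CPM in the others. The markers did not move as a set. Of the 18, 9 were called higher, 4 were called lower and 5 were not called (72.2% called, against 67.6% of all genes). *KRT14*, a defining basal keratin, was low, at 0.375, 12.5 and 11.3 CPM in the LV-NC libraries and 1.45, 1.38 and 1.82 CPM in the others. These groups overlap, with LV-NC replicate 1 the lowest library. Its partner *KRT5* was at a mean of 266 and 3354 CPM. Of other cell types, 2 of 8 endothelial markers had a row (summed 1.12 to 5.50 CPM in LV-NC and 84.6 to 89.9 CPM in LV-*ATF7*-labeled libraries, mostly *CDH5*, with no row for *PECAM1*), as did 3 of 12 macrophage markers (5.57 to 8.13 and 9.38 to 12.7 CPM, with no row for *PTPRC*), 5 of 12 fibroblast markers (41.6 to 54.5 and 37.6 to 45.6 CPM), 2 of 8 melanocyte markers (17.5 to 24.8 and 12.2 to 13.0 CPM) and 0 of 8 markers of the embryonic kidney packaging line. Their part in the results below was not tested, and fewer cells of a type and less RNA per cell cannot be told apart in bulk libraries.

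Most positional identity factors differed between the groups, in both directions. In edgeR's quasi-likelihood test across all genes, 59 of the 70 members tested had an adjusted p under 0.05, 35 of them higher and 24 lower in the LV-*ATF7*-labeled libraries. The background was high, with 67.6% of all genes called, 34.7% higher and 32.9% lower. A log2 fold change of at least 1 in size in addition was met by 38 members, 22 higher and 16 lower, against 32.8% of all genes (19.2% higher and 13.6% lower). The values of the groups did not overlap for 62 of the 71 members, against 72.7% of all genes tested. The median size of the log2 fold change was 1.07 over the members and 0.67 over all genes, and the signed medians were 0.46 and 0.00. Without LV-NC replicate 1, 61 of the 71 members then tested were called, 36 higher and 25 lower. The background rose as well in that fit, to 10011 of 12495 genes called. *TBX10* was the 1 member too low to be tested, with 8, 29 and 33 counts in the LV-NC and 0, 5 and 7 counts in the LV-*ATF7*-labeled libraries.

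**Figure D1:**
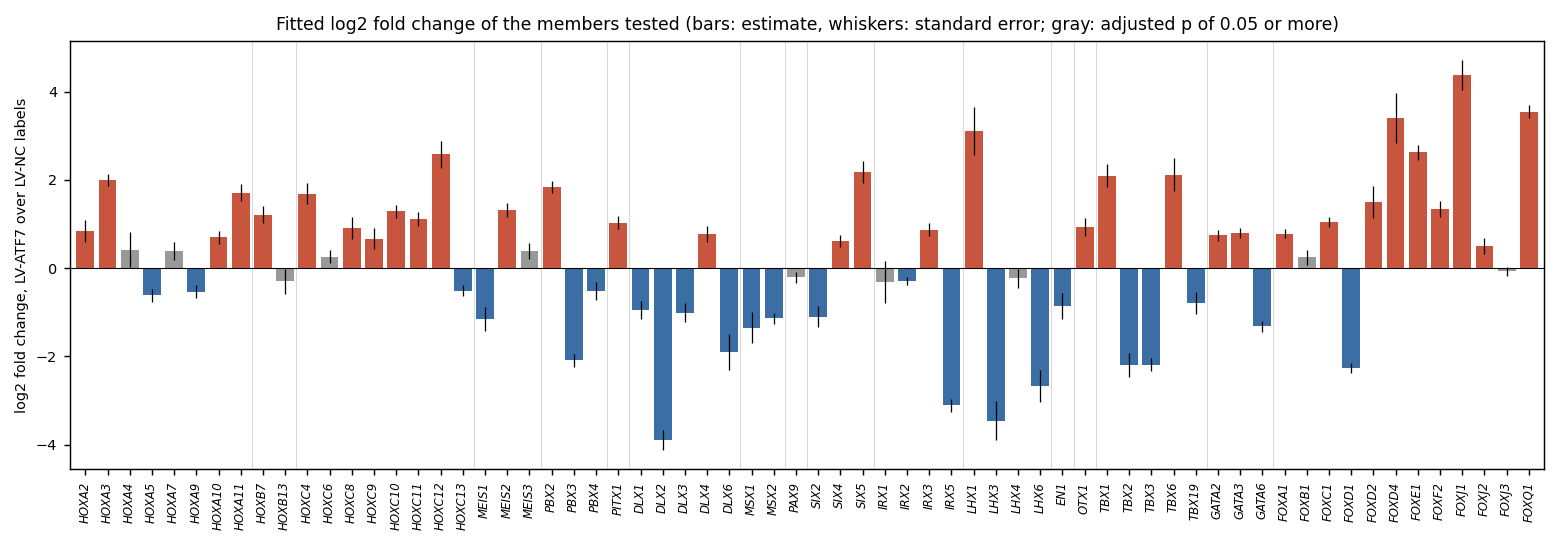
Fitted log2 fold change, LV-ATF7 over LV-NC labels, of 66 of the 70 members tested, ordered by family, with whiskers of 1 standard error (red, higher; blue, lower; gray, adjusted p of 0.05 or more). *FOXJ1* has the highest bar at 4.37 and *DLX2* the lowest at -3.89, and most families hold bars in both directions.

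**Figure D2:**
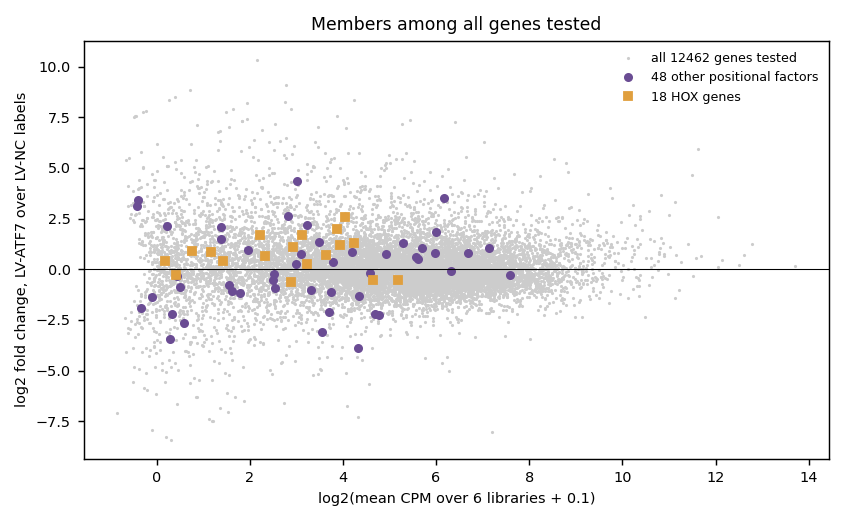
Log2 fold change against log2 of the mean CPM plus 0.1 over the 6 libraries for the 12462 genes tested (gray), 18 HOX genes (squares) and 48 other members (circles). The members lie inside the cloud of all genes, the HOX genes marked between -0.62 and 2.58 and the others between -3.89 and 4.37.

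Among the HOX genes, 15 of 19 were called (78.9%, against 67.6% of all genes), 11 higher and 4 lower, with a median log2 fold change of 0.70. Without LV-NC replicate 1 the HOX count was again 15 of 19, 11 higher and 4 lower, beside 10011 of 12495 genes in all. *HOXA5*, *HOXA9* and *HOXC13* were among the lower ones. The HOXA cluster was mixed, with genes called in both directions and a median of 0.42. The HOXC cluster went mostly one way, with 6 genes higher and 1 lower and a median of 1.01. Over all genes, the shares called were 34.7% higher and 32.9% lower, and the median was 0.00. Whether the clusters differ from each other was not tested.

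In the anterior part of the A cluster, the neighbors *HOXA2* and *HOXA3* both rose. *HOXA2*, which sets the identity of the second pharyngeal arch, was at 1.71, 1.15 and 1.74 CPM in LV-NC and 2.79, 2.91 and 2.54 CPM in LV-*ATF7*-labeled libraries (log2 fold change 0.84, SE 0.24, adjusted p = 0.0147). *HOXA3*, needed for thymus and parathyroid development, was at 6.32, 5.35 and 5.85 CPM in LV-NC against 23.8, 23.2 and 22.9 CPM (log2 fold change 2.0, SE 0.13, adjusted p = 8.64e-06). Both genes had groups that did not overlap, and *HOXA3* shares 17.9% of its exon bases with other annotated genes. The call of *HOXA2* was lost without LV-NC replicate 2 (adjusted p = 0.0611) or LV-*ATF7* replicate 2 (adjusted p = 0.0604).

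The central genes moved less. *HOXA4* was at 1.34, 0.891 and 0.405 CPM in LV-NC, the widest spread of any HOX gene relative to its level, and at 1.23, 1.12 and 1.22 CPM in LV-*ATF7*-labeled libraries, with overlapping groups (log2 fold change 0.42, SE 0.4, adjusted p = 0.378). *HOXA5*, which acts in lung and mammary epithelium, was at 8.73, 8.33 and 9.61 CPM in LV-NC against 5.81, 6.17 and 5.42 CPM (log2 fold change -0.62, SE 0.15, adjusted p = 0.00636). *HOXA7*, studied as a regulator of keratinocyte differentiation, was at 2.03, 1.99 and 2.66 CPM in LV-NC against 2.79, 2.85 and 3.1 CPM and was not called (log2 fold change 0.39, SE 0.21, adjusted p = 0.138). Annotated exons of other genes, antisense RNAs among them, cover 47.3% of the exon bases of *HOXA4* and 62.5% of those of *HOXA7*, and since strandedness of the counting is not given in the sources used here, reads of these partners cannot be told apart.

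The posterior A genes went in both directions. *HOXA9*, the most abundant HOX gene per exon length in LV-NC libraries, was at 37.4, 43.7 and 46.7 CPM in LV-NC against 31.1, 32.5 and 24.7 CPM (log2 fold change -0.53, SE 0.14, adjusted p = 0.00999). Its neighbor *HOXA10*, known from uterine and limb development, was at 10.3, 10.1 and 7.7 CPM in LV-NC against 15.5, 14.6 and 15.6 CPM (log2 fold change 0.70, SE 0.15, adjusted p = 0.00428). *HOXA11*, a gene of the forearm and uterus, was at 1.87, 1.89 and 2.6 CPM in LV-NC against 7.14, 6.88 and 6.86 CPM (log2 fold change 1.71, SE 0.19, adjusted p = 1.28e-04). The groups of none of these 3 overlapped, and *HOXA9* alone was lower. Exons of other genes cover 27%, 26.3% and 31.1% of the exon bases of *HOXA9*, *HOXA10* and *HOXA11*.

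Of the B cluster, *HOXB7* was at 6.96, 9.91 and 10.7 CPM in LV-NC against 18.3, 21.6 and 23.9 CPM (log2 fold change 1.21, SE 0.19, adjusted p = 7.51e-04). It is a trunk-level gene that many epithelial tumors express. *HOXB13*, a gene of the prostate and distal colon, stayed near 1 CPM in every library, at 1.45, 1.52 and 1.1 CPM in LV-NC against 1.06, 0.918 and 1.33 CPM, and its groups overlapped (log2 fold change -0.30, SE 0.28, adjusted p = 0.364).

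In the C cluster the genes higher in the LV-*ATF7*-labeled libraries formed a run broken by *HOXC6*. *HOXC4* was at 5.35, 2.94 and 3.88 CPM in LV-NC against 14.8, 12.6 and 12.1 CPM (log2 fold change 1.69, SE 0.23, adjusted p = 3.15e-04). *HOXC6*, active in mammary gland and thoracic skin, was at 8.25, 7.81 and 9.44 CPM in LV-NC against 10.3, 9.33 and 10.8 CPM and overlapped (log2 fold change 0.26, SE 0.15, adjusted p = 0.153). Exons of other annotated genes cover 17.8% of the exon bases of *HOXC4* and 15.7% of those of *HOXC6*. These 2 genes overlap each other there, and *HOXC6* also overlaps *HOXC9*, so the split of reads among the 3 is uncertain. *HOXC8*, a thoracic gene, was at 0.964, 1.21 and 1.16 CPM in LV-NC against 2.46, 1.84 and 1.99 CPM (log2 fold change 0.91, SE 0.25, adjusted p = 0.0121). *HOXC9*, which also acts at thoracic level, was at 4.98, 3.62 and 2.84 CPM in LV-NC against 5.41, 6.07 and 6.75 CPM (log2 fold change 0.67, SE 0.23, adjusted p = 0.0327). Both groups of values stayed apart for *HOXC8* and *HOXC9*, but *HOXC9* missed the threshold without any 1 of 5 libraries, LV-NC replicates 2 and 3 and the 3 LV-*ATF7*-labeled ones (adjusted p = 0.0542 to 0.123), and *HOXC8* without LV-*ATF7* replicate 1 (adjusted p = 0.0558).

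The 4 posterior genes hold both the largest rise of the C cluster and its 1 fall. *HOXC10*, a lumbar and hindlimb gene, was at 12.9, 10.5 and 9.2 CPM in LV-NC against 26.3, 26.9 and 26.5 CPM (log2 fold change 1.29, SE 0.15, adjusted p = 1.39e-04). *HOXC11*, likewise a hindlimb gene, was at 4.93, 4.88 and 4.34 CPM in LV-NC against 9.6, 9.38 and 11.7 CPM (log2 fold change 1.11, SE 0.16, adjusted p = 4.56e-04). *HOXC12*, a gene of the hair follicle and distal body, was at 7.55, 3.35 and 3.18 CPM in LV-NC against 29, 27.2 and 28.4 CPM (log2 fold change 2.58, SE 0.31, adjusted p = 1.80e-04). LV-NC replicate 1 held over 1.5 times the *HOXC12* level of both other LV-NC libraries, and without it the log2 fold change was 3.08. *HOXC13*, which drives hair and nail keratin genes, was at 32.3, 27.9 and 28.2 CPM in LV-NC against 19.3, 20.4 and 22.3 CPM (log2 fold change -0.51, SE 0.12, adjusted p = 0.00525). It is the immediate neighbor of *HOXC12*, and both had groups that did not overlap, in opposite directions.

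**Figure D3:**
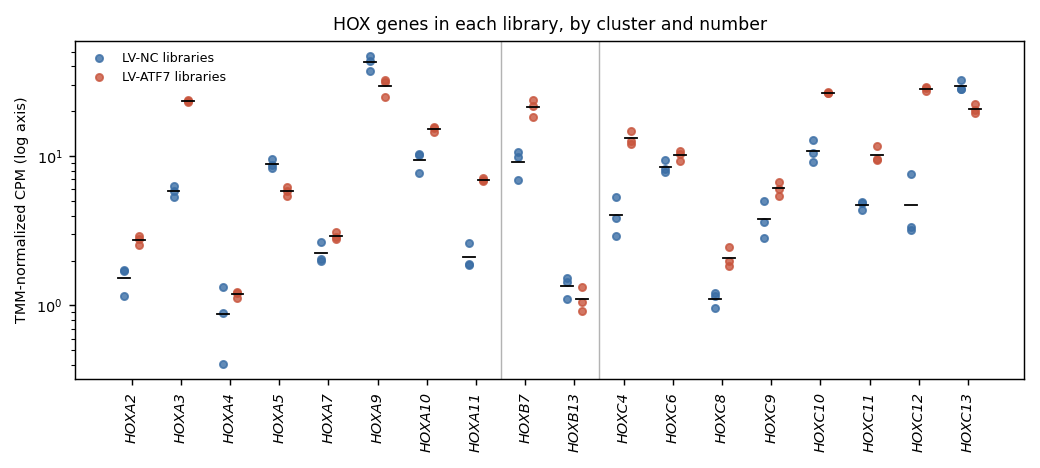
TMM-normalized CPM (log axis) of 18 HOX genes in each of the 3 LV-NC (blue) and 3 LV-ATF7 (red) libraries, with a bar at each group mean; gray lines part the A, B and C clusters. The groups overlap for *HOXA4*, *HOXB13* and *HOXC6*, and *HOXA3*, *HOXA11* and *HOXC12* show wide gaps.

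Along the A cluster, *HOXA10* and its neighbor *HOXA11* rose together, and *HOXA9* and its neighbor *HOXA10* went in opposite directions. Along the C cluster, 5 of the 7 pairs of neighboring members in the table had both genes called, 4 in the same and 1 in opposite directions. Genes of the same paralog group did not share a direction in each case either. *HOXA9* fell and *HOXC9* rose, whereas both *HOXA10* and *HOXC10* and both *HOXA11* and *HOXC11* rose. The nearest genes in the table outside the clusters were *SKAP2* (log2 fold change -0.81, adjusted p = 0.0016) and *HIBADH* (0.42, adjusted p = 0.072) around HOXA and *CALCOCO1* (0.16, adjusted p = 0.121) and *SMUG1* (0.34, adjusted p = 0.0144) around HOXC.

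**Figure D4:**
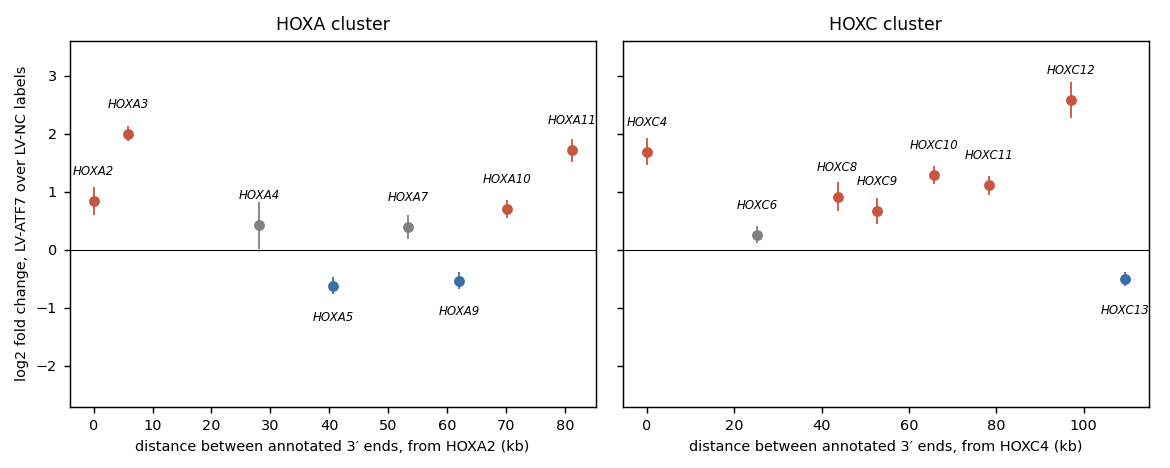
Log2 fold change with whiskers of 1 standard error against the distance in kb between annotated 3′ ends, from *HOXA2* (left) and *HOXC4* (right); red, higher; blue, lower; gray, adjusted p of 0.05 or more. The A-cluster genes drawn lie between -0.62 and 2.0 over 81.2 kb, and the C cluster stays above 0 up to *HOXC12* at 2.58 and falls below 0 at *HOXC13*.

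Within the C cluster the shares of the summed level per kb of exon shifted. *HOXC13* went from 46.0% to 19.4% of the C-cluster level and *HOXC12* from 5.33% to 19.2%. In the LV-*ATF7*-labeled libraries *HOXC10* held the largest C-cluster share, 25.9%.

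Among the TALE cofactors of the PBX family, *PBX2* rose and *PBX3* and *PBX4* fell. *PBX2*, a broadly expressed cofactor of HOX proteins, was at 33.8, 24.3 and 26.2 CPM in LV-NC and 100.5, 100.2 and 100.3 CPM in LV-*ATF7*-labeled libraries (log2 fold change 1.84, SE 0.14, adjusted p = 1.47e-05). *PBX3* went the other way, at 20.6, 22.9 and 19 CPM in LV-NC against 5.36, 4.33 and 4.98 CPM (log2 fold change -2.09, SE 0.15, adjusted p = 1.36e-05). In both genes the groups lay far apart, with *PBX2* near 100 CPM in each LV-*ATF7*-labeled library and *PBX3* near 5 CPM. *PBX2* shares 15.1% of its exon bases with an overlapping gene and has a pseudogene copy, so its reads are uncertain to that extent. *PBX4* had a smaller change (log2 fold change -0.52, SE 0.2, adjusted p = 0.0475), and its call was lost without any 1 library other than LV-NC replicate 1 (adjusted p = 0.0705 to 0.147).

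Per kb of exon, *PBX2* went from 6.47 to 23.1 CPM per kb, *PBX3* from 4.6 to 1.08 and *PBX4* from 2.57 to 1.79, so that *PBX2* was the highest of these 3 in both groups.

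The *MEIS* genes, whose proteins bind PBX and HOX partners, also parted. *MEIS2* was at 28.2, 19.6 and 19.4 CPM in LV-NC against 59.7, 55.1 and 51.9 CPM (log2 fold change 1.31, SE 0.16, adjusted p = 1.96e-04). *MEIS1* was at 3.69, 4.67 and 5.56 CPM in LV-NC against 1.4, 2.19 and 2.65 CPM (log2 fold change -1.15, SE 0.28, adjusted p = 0.00679). The groups of both stayed apart, *MEIS2* higher and *MEIS1* lower. *MEIS3* was at 8.99, 12.7 and 14.1 CPM in LV-NC against 15.9, 14.7 and 15.9 CPM and was not called (log2 fold change 0.38, SE 0.18, adjusted p = 0.0946). Of the 14 listed TALE and homeodomain partners outside the symbol rule, 5 had a row and 2 were called (40.0%, against 67.6% of all genes). *TGIF2*, a TALE repressor, was higher (log2 fold change 1.75, SE 0.15, adjusted p = 2.87e-05), and *GMNN*, which encodes the replication inhibitor geminin that also binds HOX proteins, was lower (log2 fold change -0.76, SE 0.19, adjusted p = 0.0088).

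The upstream sequences of *PBX2* and *PBX3* are shown because these genes moved in opposite directions. They are 150 bases before the RefSeq transcript start, written 5′ to 3′ on the gene's strand (GRCh38.p14), with capitals for a TGACAG match, the letters bound by MEIS and TGIF proteins, on either strand.
*PBX2* (chr6:32190203-32190352, minus strand): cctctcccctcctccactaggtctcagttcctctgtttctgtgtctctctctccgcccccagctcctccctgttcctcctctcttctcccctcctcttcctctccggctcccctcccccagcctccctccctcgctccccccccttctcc
*PBX3* (chr9:125748033-125748182, plus strand): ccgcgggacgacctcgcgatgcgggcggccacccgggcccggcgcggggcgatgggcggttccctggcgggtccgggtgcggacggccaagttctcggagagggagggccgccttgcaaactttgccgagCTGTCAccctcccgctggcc
The *PBX3* window lies before the RefSeq start but inside the gene as annotated in GENCODE, with 1 of the 150 bases in an exon. It holds the match 20 bases before the start, and the *PBX2* window holds none of the 8 motifs searched. These matches are descriptions of the letters and not binding sites.

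**Figure D5:**
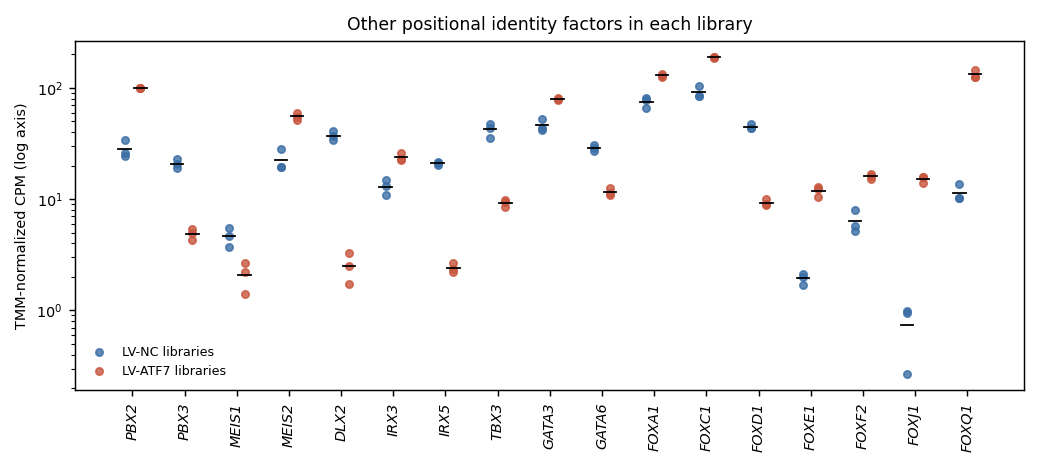
TMM-normalized CPM (log axis) of 17 members outside the HOX clusters in each of the 3 LV-NC (blue) and 3 LV-ATF7 (red) libraries, with a bar at each group mean. *FOXQ1* lies between 10.2 and 13.8 CPM in LV-NC and at 125 CPM or more in LV-ATF7 libraries, and *DLX2* and *IRX5* fall below 3.3 CPM in each LV-ATF7 library.

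The distal-less genes, which pattern limb, jaw and skin appendages, were mostly lower, 4 of 5, against 32.9% of all genes. *DLX2*, which acts in the jaw and forebrain, was at 33.8, 37 and 40.7 CPM in LV-NC and 1.73, 3.26 and 2.49 CPM in LV-*ATF7*-labeled libraries (log2 fold change -3.89, SE 0.22, adjusted p = 4.80e-06). *DLX3*, required for hair and for terminal differentiation of the epidermis, was at 16.5, 10.8 and 12.3 CPM in LV-NC against 5.36, 6.22 and 8.13 CPM (log2 fold change -1.01, SE 0.22, adjusted p = 0.00416). *DLX6*, a gene of the lower jaw and limb ridge, had 23, 14 and 23 counts in LV-NC against 6, 6 and 4 counts (log2 fold change -1.90, SE 0.4, adjusted p = 0.00341). *DLX2* was the largest fall of any member, and *DLX6* was low in both groups. Per kb, *DLX2* led the family in LV-NC with 58.3% of its summed level and held 11.4% in the LV-*ATF7*-labeled libraries, where *DLX4* held 40.0%.

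The *MSX* genes encode repressors at sites of contact between epithelium and mesenchyme, including the hair follicle and tooth, and both fell. *MSX2* was at 17.9, 18.2 and 19.2 CPM in LV-NC against 8.37, 8.41 and 8.35 CPM, with little spread in either group (log2 fold change -1.14, SE 0.12, adjusted p = 9.16e-05). *MSX1* had 18, 22 and 26 counts in LV-NC against 6, 10 and 10 counts (log2 fold change -1.35, SE 0.35, adjusted p = 0.00898). Neither gene's groups overlapped. *PITX1*, which specifies the hindlimb, was at 39.7, 34.2 and 28.7 CPM in LV-NC against 64.8, 68.6 and 76.3 CPM (log2 fold change 1.03, SE 0.14, adjusted p = 2.86e-04).

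Single members stood for 3 families. *PAX9*, a gene of pharyngeal pouches, teeth and oral epithelium, was at 28.8, 23.8 and 24 CPM in LV-NC against 22.7, 21.3 and 22.3 CPM and was not called (log2 fold change -0.21, SE 0.12, adjusted p = 0.158). *EN1*, which marks ventral limb ectoderm and acts in sweat gland formation, had 28, 36 and 30 counts in LV-NC against 12, 17 and 23 counts (log2 fold change -0.86, SE 0.3, adjusted p = 0.0346). *OTX1*, a head-patterning gene, was at 3.05, 2.36 and 2.49 CPM in LV-NC against 4.35, 5.51 and 5.2 CPM (log2 fold change 0.93, SE 0.2, adjusted p = 0.00362). *EN1* was lower and *OTX1* higher, and the call of *EN1* was lost without LV-NC replicate 2 or 3 or LV-*ATF7* replicate 1 or 2 (adjusted p = 0.0638 to 0.122).

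The sine oculis genes, homeobox partners of EYA proteins in sense organs, muscle and kidney, moved in both directions. *SIX4*, the most abundant per kb, was at 44.2, 33.2 and 35.7 CPM in LV-NC against 61.4, 59.3 and 51.8 CPM (log2 fold change 0.61, SE 0.13, adjusted p = 0.00396). *SIX5* was at 4.44, 3.25 and 2.26 CPM in LV-NC against 13.8, 13.7 and 18 CPM (log2 fold change 2.18, SE 0.25, adjusted p = 1.39e-04). Exons on the opposite strand cover 59.3% of the exon bases of *SIX5*, so its reads are uncertain. *SIX2*, which keeps kidney progenitors undifferentiated, was lower, at 4.07, 4.3 and 3.82 CPM in LV-NC against 1.34, 2.24 and 2.1 CPM (log2 fold change -1.10, SE 0.24, adjusted p = 0.00393).

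The Iroquois genes hold the member with the highest mean over the 6 libraries and one of the most changed. In the LV-*ATF7*-labeled libraries alone the mean of *FOXC1* was higher, at 188 CPM against 173 CPM for *IRX2*. *IRX2* had the highest mean CPM over the 6 libraries of all 71, at 224, 204 and 205 CPM in LV-NC against 168, 162 and 189 CPM, and its fall was the smallest among the members called (log2 fold change -0.29, SE 0.095, adjusted p = 0.0272), a call lost without LV-*ATF7* replicate 1 (adjusted p = 0.0952) or 2 (adjusted p = 0.13). *IRX5* was at 21, 20.2 and 21.6 CPM in LV-NC against 2.23, 2.65 and 2.38 CPM (log2 fold change -3.11, SE 0.15, adjusted p = 2.19e-06). Within *IRX5* the libraries of a group differed by little beside the gap between groups. Per kb, *IRX2* made up 83.2% of the family's level in LV-NC and 84.2% in the LV-*ATF7*-labeled libraries, and *IRX5* went from 9.82% to 1.40%.

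LIM-homeobox genes, known from neurons and the pituitary, were low in these cells. *LHX1* had 1, 1 and 5 counts in LV-NC and 23, 19 and 22 counts in LV-*ATF7*-labeled libraries, a ratio of 9.05 with a 95% exact counting interval of 4.15 to 23.4 (adjusted p = 0.00137). *LHX3* had 33, 40 and 40 counts in LV-NC against 5, 1 and 4 counts, an LV-NC over LV-*ATF7*-labeled ratio of 11.4 with an interval of 5.99 to 24.5 (adjusted p = 2.25e-04). *LHX6* had 30, 57 and 47 counts in LV-NC against 9, 6 and 6 counts (log2 fold change -2.67, SE 0.37, adjusted p = 3.92e-04). The groups of all 3 stayed apart, *LHX1* higher and *LHX3* and *LHX6* lower, and these intervals cover counting error only. *LHX4*, the most abundant of the family per kb, was at 7.55, 4.93 and 5.79 CPM in LV-NC against 4.35, 6.07 and 5.14 CPM with overlapping groups (log2 fold change -0.23, SE 0.22, adjusted p = 0.375), and exons of another gene cover 30.8% of its exon bases.

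T-box genes called were 2 higher and 3 lower of the 5 tested, beside 34.7% of all genes higher and 32.9% lower. *TBX3*, a repressor that keeps epidermal and mammary progenitors dividing, was at 35.6, 44 and 47.6 CPM in LV-NC against 9.38, 8.51 and 9.9 CPM (log2 fold change -2.19, SE 0.15, adjusted p = 9.54e-06). *TBX2*, its closest relative, had 37, 37 and 31 counts in LV-NC against 8, 8 and 7 counts (log2 fold change -2.19, SE 0.27, adjusted p = 2.09e-04). The fitted change was -2.19 for both, at levels per kb of 7.12 and 1.56 CPM for *TBX3* and 0.316 and 0.0686 CPM for *TBX2*. *TBX1*, a pharyngeal gene also used by hair follicle stem cells, had 20, 13 and 19 counts in LV-NC against 82, 79 and 65 counts (log2 fold change 2.09, SE 0.26, adjusted p = 1.90e-04). *TBX6*, a gene of the paraxial mesoderm, had 7, 10 and 5 counts in LV-NC against 22, 36 and 40 counts (log2 fold change 2.12, SE 0.37, adjusted p = 0.00127). Both were higher in every LV-*ATF7*-labeled library than in any LV-NC library.

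GATA factors were expressed in every library. *GATA3*, which acts in epidermal barrier formation and the inner root sheath of the hair follicle, was at 52.4, 43.8 and 42.3 CPM in LV-NC against 77.6, 80.2 and 81.8 CPM (log2 fold change 0.79, SE 0.11, adjusted p = 3.44e-04). *GATA6*, a marker of sebaceous duct and upper follicle cells, was at 29.1, 27.4 and 30.7 CPM in LV-NC against 11, 11.4 and 12.6 CPM (log2 fold change -1.32, SE 0.12, adjusted p = 4.09e-05). *GATA3* rose and *GATA6* fell with no overlap, and *GATA2* was also higher (log2 fold change 0.74, SE 0.12, adjusted p = 8.25e-04). Antisense exons cover 14.2% of the exon bases of *GATA6*.

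Forkhead factors were mostly higher, with 9 of 12 higher and 1 lower and a median log2 fold change of 1.19. Of all genes, 34.7% were called higher and 32.9% lower, with a median of 0.00. *FOXJ1*, the master regulator of motile cilia, had 5, 18 and 17 counts in LV-NC and 282, 311 and 251 counts in LV-*ATF7*-labeled libraries (log2 fold change 4.37, SE 0.34, adjusted p = 1.87e-05). LV-NC replicate 1 was the lowest library for *FOXJ1*, and without it the log2 fold change was 3.95. *FOXQ1*, whose loss gives mice a satin coat through the hair medulla, was at 13.8, 10.2 and 10.2 CPM in LV-NC against 125, 126 and 146 CPM (log2 fold change 3.54, SE 0.15, adjusted p = 1.66e-06). *FOXE1*, a thyroid and hair follicle factor, was at 2.14, 1.99 and 1.68 CPM in LV-NC against 10.4, 12.4 and 12.9 CPM (log2 fold change 2.62, SE 0.18, adjusted p = 1.13e-05). These 3 had the largest rises among forkhead genes with more than 3 counts in each library.

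*FOXC1*, which keeps hair follicle stem cells quiescent, was the most abundant forkhead gene per kb over all libraries and was at 104, 85.5 and 84.8 CPM in LV-NC against 185, 191 and 188 CPM (log2 fold change 1.04, SE 0.11, adjusted p = 6.94e-05). *FOXF2*, a mesenchymal gene of the gut and palate, was at 7.98, 5.77 and 5.21 CPM in LV-NC against 15.2, 16.7 and 16.2 CPM (log2 fold change 1.34, SE 0.18, adjusted p = 3.36e-04). *FOXD2* had 30, 12 and 29 counts in LV-NC against 74, 57 and 73 counts (log2 fold change 1.5, SE 0.36, adjusted p = 0.00613). All 3 were higher without overlap. *FOXD4* had 2, 2 and 2 counts in LV-NC against 11, 30 and 27 counts, a ratio of 11.2 with a 95% exact counting interval of 4.89 to 31.6 (adjusted p = 8.90e-04), and since near-identical *FOXD4L* copies exist in the genome its reads are uncertain. *FOXD1*, a gene of kidney stroma and dermal fibroblast precursors, was the 1 lower forkhead gene, at 43.3, 43.6 and 47.8 CPM in LV-NC against 9.04, 8.87 and 10.01 CPM (log2 fold change -2.27, SE 0.11, adjusted p = 2.84e-06). An antisense RNA covers 16.2% of its exon bases. Summed forkhead levels were 363 ± 38.7 and 651 ± 21.6 CPM.

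Several members are neighbors on a chromosome, within 1 Mb of each other, and these loci were singled out after their values were seen. *FOXQ1*, *FOXF2* and *FOXC1* lie in this order on chromosome 6 (74.8 and 214.4 kb apart in GENCODE release 29, GRCh38), and all 3 rose, by 3.54, 1.34 and 1.04. Of the nearest genes outside, *GMDS*, 9.9 kb beyond *FOXC1*, was at 0.56 (adjusted p = 0.0318) and *EXOC2* at 0.17 (adjusted p = 0.16). *DLX1* and *DLX2*, 9.8 kb apart on chromosome 2, were both lower, with log2 fold changes of -0.95 (adjusted p = 0.0043) and -3.89. Their neighbor *METAP1D*, 2.3 kb from *DLX1*, went from 1.27 to 12.2 CPM (log2 fold change 3.25, adjusted p = 4.19e-06).

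At 2 loci neighbors moved in opposite directions. *IRX3* and *IRX5* lie 644.1 kb apart on chromosome 16, and *IRX3*, at 13.2, 10.9 and 14.8 CPM in LV-NC against 22.8, 22.4 and 25.9 CPM, rose (log2 fold change 0.87, SE 0.15, adjusted p = 0.00115) where *IRX5* fell. *FTO*, on the far side of *IRX3*, was at 0.02 (adjusted p = 0.884). *DLX4* and *DLX3* lie 15.0 kb apart on chromosome 17, and *DLX4*, at 7.17, 6.19 and 5.38 CPM in LV-NC against 10.2, 9.23 and 12.7 CPM, rose (log2 fold change 0.77, SE 0.18, adjusted p = 0.00611) where *DLX3* fell. *IRX1*, near *IRX2* on chromosome 5, was at 2.41, 0.629 and 1.16 CPM in LV-NC against 1.28, 1.02 and 1.05 CPM, and the sign of its difference depended on LV-NC replicate 1 (-0.32 with it and 0.32 without it).

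The upstream sequences of the 3 chromosome 6 forkhead genes are shown because these neighbors rose together, and that of *DLX6* because it is the 1 member among those searched with the ATF/CREB letters TGACGTCA, which ATF7 family proteins bind. Each line gives 150 bases before the RefSeq start (GRCh38.p14), 5′ to 3′ on the gene's strand, with the ATF/CREB letters in capitals.
*FOXQ1* (chr6:1311948-1312097, plus strand): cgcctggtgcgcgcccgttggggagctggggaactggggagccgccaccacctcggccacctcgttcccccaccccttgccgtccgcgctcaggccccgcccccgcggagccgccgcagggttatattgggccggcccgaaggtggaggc
*FOXF2* (chr6:1389426-1389575, plus strand): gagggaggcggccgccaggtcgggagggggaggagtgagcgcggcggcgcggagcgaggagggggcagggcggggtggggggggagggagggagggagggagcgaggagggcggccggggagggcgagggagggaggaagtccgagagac
*FOXC1* (chr6:1609765-1609914, plus strand): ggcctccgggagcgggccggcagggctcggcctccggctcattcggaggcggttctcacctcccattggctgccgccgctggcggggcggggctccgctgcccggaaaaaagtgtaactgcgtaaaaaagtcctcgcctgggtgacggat
*DLX6* (chr7:97005403-97005552, plus strand): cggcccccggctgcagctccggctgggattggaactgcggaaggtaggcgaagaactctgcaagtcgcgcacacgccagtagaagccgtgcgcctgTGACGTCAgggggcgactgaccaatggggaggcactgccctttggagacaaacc
The match in *DLX6* lies 54 bases before the start, and *DLX6* was lower in the LV-*ATF7*-labeled libraries. None of the 3 forkhead windows holds a match of the motifs searched in the bases printed.

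RefSeq windows were at hand for 47 of the 71 members, and each was searched over 250 bases before the start, on both strands. TGACGTCA was found in 1 of the 47 (2.13%) and in 2.93% of the windows of 10137 genes in the table. TGACTCA, the AP-1 letters, was found in 1 (2.13%, against 2.67%), and TGATTNAT, bound by PBX with HOX, in 2 (4.26%, against 1.15%). TGACAG was found in 9 (19.1%, against 10.4%). TGTTTAC, a forkhead motif, was found in 1, against 2.0% of all windows. AGGTGTGA, a T-box motif, was found in 1, against 0.631%. The zinc finger motif AGATAA was found in 3, against 4.42%. The E-box CACGTG was found in 4, against 8.67%. No match overlapped another. With so few windows these shares are descriptions. The sites of the PBX with HOX letters and of AP-1 are shown as 30 bases each, with the match in capitals.
*HOXA2*, PBX with HOX (chr7:27102779-27102808, minus strand): gacttttttggATCAATCAaacagacagtg
*LHX4*, PBX with HOX (chr1:180230148-180230177, plus strand): ctgcagtgtgaATGAATCAaaacgcccggg
*DLX1*, AP-1 (chr2:172085462-172085491, plus strand): atgaccttcgcTGAGTCAaagctttgaacc
*HOXA2* holds its match 114 bases before the start and a TGACAG match 47 bases before it. The printed *HOXA2* and *DLX1* sites lie before the RefSeq start but inside these genes as annotated in GENCODE. Annotated exons cover 128 of the 150 bases nearest the start in *HOXA2* and all 150 in *DLX1*, against 0 in *LHX4*. The *HOXA2* and *DLX1* letters are therefore transcribed sequence in that annotation. The median GC content was 51.2% in the 8 HOX windows, 68.0% in the 39 other windows and 64.8% over the table's genes. Among the members for which no window was used were *DLX3*, *DLX4*, *EN1*, *FOXJ1*, *HOXA5*, *HOXB7*, *HOXB13*, *HOXC6*, *HOXC8* to *HOXC13*, *IRX3*, *IRX5*, *LHX1*, *SIX5*, *TBX2* and *TBX3*.

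Compared per kb of exon, the order of the members shifted between the groups. In LV-NC libraries *IRX2* (62.4 CPM per kb), *FOXC1* (23.3), *FOXA1* (19), *FOXD1* (17.1) and *HOXA9* (14.1) led. In LV-*ATF7*-labeled libraries *FOXQ1* led at 57.3 CPM per kb, followed by *IRX2* at 51.1, *FOXC1* at 47.9, *FOXA1* at 32.5 and *GATA3* at 23.2. *FOXD1* went to rank 30 and *DLX2* from rank 7 to rank 54 of 71.

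*FOXB1* and *FOXJ3* were not called either, and the second was near 80 CPM in every library (log2 fold change -0.07, SE 0.099, adjusted p = 0.579). The smaller changes of *TBX19*, *FOXA1* and *FOXJ2* lay between -0.79 and 0.78. Of these, *TBX19* lost its call without LV-*ATF7* replicate 2 or 3 (adjusted p = 0.058 and 0.0803), and *FOXJ2* without LV-NC replicate 2 or 3 or LV-*ATF7* replicate 2 or 3 (adjusted p = 0.0938 to 0.147). *FOXB1* passed the threshold without LV-NC replicate 1 (adjusted p = 0.0308). Among the 70 tested, 5 members in LV-NC replicate 1 lay over 1.5 times above or below both other libraries of the group (*HOXA4*, *HOXC12*, *IRX1*, *LHX6* and *FOXJ1*; 7.14%, against 19.3% of all genes), and 1 to 5 did in each other library. The share was 7.14% against 1.72% of all genes in LV-*ATF7* replicate 1. It was 5.71% against 2.58% in LV-NC replicate 2 and 4.29% against 2.48% in LV-NC replicate 3. In LV-*ATF7* replicates 2 and 3 it was 1.43%, against 1.46% and 1.67%.

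Regulators of HOX clusters changed in both directions. Of 54 Polycomb and trithorax genes, 35 were called (64.8%, against 67.6% of all genes), 17 higher and 18 lower, and with scaling by library size alone 10 were higher and 22 lower. Without LV-*ATF7* replicate 2, 22 of the 54 were called, beside 7290 of 12497 genes in all. Of 13 PRC2 genes, which place the silencing mark on HOX clusters, 4 were higher and 7 lower, with the largest changes in *RBBP4* (log2 fold change 1.56, SE 0.12, adjusted p = 2.01e-05), *PHF1* (log2 fold change 0.93, SE 0.16, adjusted p = 9.93e-04) and *LCOR* (log2 fold change -0.90, SE 0.11, adjusted p = 1.58e-04). Of 22 PRC1 genes, which compact chromatin with that mark, 8 were higher and 6 lower, led by *SCMH1* (log2 fold change 2.83, SE 0.28, adjusted p = 6.72e-05), *RYBP* (log2 fold change -1.67, SE 0.1, adjusted p = 6.09e-06) and *CBX7* (log2 fold change 1.13, SE 0.16, adjusted p = 3.76e-04). Of 19 genes of trithorax, MLL and H3K27 demethylase complexes, 5 were higher and 5 lower, led by *RBBP5* (log2 fold change -1.03, SE 0.092, adjusted p = 3.75e-05), *WDR5* (log2 fold change 0.61, SE 0.11, adjusted p = 0.00149) and *KMT2A* (log2 fold change 0.57, SE 0.2, adjusted p = 0.0359). Of 12 insulator and cohesin genes, which set domain borders in HOX clusters, 3 were higher and 4 lower, led by *MAZ* (log2 fold change 3.05, SE 0.15, adjusted p = 2.67e-06), *PATZ1* (log2 fold change 1.68, SE 0.11, adjusted p = 8.85e-06) and *SMC1A* (log2 fold change -0.59, SE 0.21, adjusted p = 0.0373). The *SMC1A* groups overlapped, at 190, 333 and 351 CPM in LV-NC against 196, 195 and 190 CPM. The shares called were 84.6% for PRC2, 63.6% for PRC1, 52.6% for trithorax and 58.3% for insulator genes, against 67.6% of all genes.

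Of 74 other homeobox and patterning factors listed, 30 had a row and 26 were called (86.7%, against 67.6% of all genes), 16 higher and 10 lower. *POU2F3*, a factor of suprabasal epidermis and tuft cells, had 18, 7 and 13 counts in LV-NC against 300, 350 and 344 counts (log2 fold change 4.68, SE 0.27, adjusted p = 5.49e-06). *ISL1*, a LIM-homeobox gene of motor neurons and heart, had 136, 186 and 143 counts in LV-NC against 16, 12 and 10 counts (log2 fold change -3.61, SE 0.25, adjusted p = 1.10e-05). *ZEB1*, which represses epithelial genes, had 29, 28 and 35 counts in LV-NC against 2, 3 and 3 counts, an LV-NC over LV-*ATF7*-labeled ratio of 11.6 with an interval of 5.66 to 27.7. *POU2F3* was higher and the other 2 were lower, without overlap.

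Of 30 signals that pattern HOX and limb genes, 17 had a row and 12 were called (70.6%, near the 67.6% of all genes), 8 higher and 4 lower. *RARB*, a retinoic acid receptor, had 0, 0 and 1 counts in LV-NC and 87, 111 and 102 counts in LV-*ATF7*-labeled libraries, a ratio of 297 with an interval of 52.9 to 11800.0 (adjusted p = 7.51e-06). *ALDH1A2*, which makes retinoic acid, had 10, 15 and 8 counts in LV-NC against 367, 402 and 352 counts (log2 fold change 5.06, SE 0.21, adjusted p = 1.39e-06). *FGF9* had 24, 29 and 30 counts in LV-NC against 0, 1 and 0 counts, an LV-NC over LV-*ATF7*-labeled ratio of 83.9 with an interval of 14.6 to 3350.0 (adjusted p = 9.00e-05). *RARB* and *ALDH1A2* were higher and *FGF9* was lower. Other retinoid genes of the list went both ways. *ALDH1A3* was at a log2 fold change of 2.53 (adjusted p = 1.02e-06) and the receptor *RARG* at 2.20 (adjusted p = 4.50e-06). The receptor *RARA* was at -0.78 (adjusted p = 8.58e-04) and *CYP26B1*, which breaks down retinoic acid, at -0.62 (adjusted p = 0.0257). Counting all lists of patterning genes outside the symbol rule together, 47 of 64 were called (73.4%, against 67.6% of all genes), 28 higher and 19 lower, and with scaling by library size alone 22 were higher and 26 lower.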

How the data were processed

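Total RNA of 6 HaCaT libraries (3 per group) was poly(A)-selected and sequenced by the authors. The authors deposited raw counts per gene for 12499 genes in 1 table, with FPKM values and their own fold changes and p-values beside them; the authors' FPKM and comparison columns were not used. The submitters' processing notes name the build GRCh38, and the aligner, counter, annotation and strandedness are not given in the sources used here. Samples were grouped by their labels. The groups were compared in edgeR 4.0.16 under R 4.3.3 (TMM factors, filterByExpr, glmQLFit and glmQLFTest, no covariates), with Benjamini-Hochberg adjustment over 12462 genes and a threshold of 0.05; 37 genes failed the filter. The standard error is the size of the log2 fold change over the square root of F. Blank symbols (33) were kept under their identifiers. Exons, positions and lengths (exon bases counted once) came from GENCODE release 29, where 12485 identifiers were found. The exons of 14 members overlap other genes by more than 10%. Promoter windows came from RefSeq (GRCh38.p14) and were searched in Python 3.11.15; of the 47 windows, 32 run into a GENCODE transcript of the same gene and strand.

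The members and lists were chosen with earlier results of these data known, so they are not independent evidence. Named were all HOX genes, the other members called with a log2 fold change of at least 1 in size and groups that do not overlap, the highest member per kb of each family and the 3 largest called changes of each list. *GATA2*, *ALDH1A3*, *RARG*, *RARA*, *CYP26B1*, the neighbors in the locus paragraphs and the members named as not called were added after their values were seen. Results of 4 members by name are not reported here, and the figures leave these members out. Alternatives were DESeq2 1.42.0, limma 3.58.1 voom with quality weights, scaling by library size or upper quartile, a filter of 10 counts per library, no filter, a replicate block, a fold of at least 1.5, and each library left out. The pipeline was tested on simulated counts. Depths of 16686472 to 20562768 counts put members near 1 CPM at few counts (7 to 25 for *HOXA4*); intervals cover counting error only.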

Additional observations from a re-analysis of the deposited data

How the results depend on the processing

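Over the 14 alternatives, 50 to 61 members were called, and of the 59 called in the main test, 51 kept call and direction in each of the 13 refits that tested them. The call of *HOXA2*, *HOXC8*, *HOXC9*, *PBX4*, *IRX2*, *EN1*, *TBX19* or *FOXJ2* was lost in at least 1 refit. With at least 10 counts in every library, 9 called members were not tested and the other 50 kept their call. A fold of at least 1.5 in addition was not met by 5 called members, *HOXA9*, *HOXC13*, *PBX4*, *IRX2* and *FOXJ2*, and 40 were tested and called in all 14 alternatives. Leaving out 1 library gave 7290 to 10011 of all genes, 52 to 61 members, 13 to 15 HOX genes and 22 to 42 Polycomb and trithorax genes. The last were at 22 without LV-*ATF7* replicate 2 (7290 of 12497 genes in all) and at 18 with a fold of at least 1.5 in addition (6588 of 12462 genes in all). The cause was not tested beyond the fewer libraries and the added threshold. The differences that turned sign were those of *IRX1* (0.26 under limma voom with quality weights and 0.32 without LV-NC replicate 1, with -0.72 to 0.32 over the libraries left out), *LHX4* (0.03) and *FOXJ3* (0.00, both under voom), none of them called. Newly called were *HOXA4* (0.92) and *FOXB1* (0.40) under voom, *FOXB1* (0.37) without LV-NC replicate 1 and *PAX9* (-0.38) with library size only. *TBX10*, too low for the main test, was tested in 6 refits and called lower in 4 (-2.59 in DESeq2, -2.53 with no filter, -2.97 without LV-NC replicate 1 and -3.21 without LV-*ATF7* replicate 3). Library size scaling shifted the all-gene median by -0.16 on the log2 scale and gave 3629 genes higher and 4930 lower in place of 4327 and 4102, and 33 members higher and 25 lower. Members with few counts are limited by depth.

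Same-numbered libraries did not deviate together (r = 0.0579, -0.0201 and 0.0640), and the main test used no pairing. With 3 libraries per group and LV-NC replicate 1 standing apart, these values cannot exclude a pairing. With the replicate number as a block, 56 members and 8210 of all genes were called, 14 HOX genes, 42 other members, 32 Polycomb and trithorax genes and 44 patterning genes, and *HOXC9*, *PBX4* and *EN1* were the members that lost the call.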
